A study of Mus musculus with 11 samples.

Results

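The enzymes of bile acid synthesis and conjugation were examined in the livers of ovariectomized (OVX) mice given follicle-stimulating hormone (FSH) or saline. Members were chosen by symbol and number 10 of the 36788 gene identifiers in the table, and all 10 passed the filter on low values that left 12733 genes for testing. All 11 mice were females more than 12 weeks old, labelled as WT C57BL/6 although the methods of the study give a mixed strain background for its mice, that had lost their ovaries and were kept on a high-fat diet. The FSH group (5 mice, labelled 1, 2, 3, 4 and 6) received 30 IU/kg FSH daily by intraperitoneal injection, and the control group (6 mice, labelled OVX 1 to 6) received saline. In both groups 1 week lay between ovariectomy and treatment. Each library comes from the liver of 1 labelled mouse, and values per liver are given below in the order of these labels. No group with intact ovaries and no group on chow was analysed here, so the values describe FSH on top of ovariectomy and high-fat feeding.

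Hepatocytes make bile acids from cholesterol by a pair of routes. In the classic branch Cyp7a1 hydroxylates the sterol ring in the rate-limiting step and Cyp8b1 adds the hydroxyl group that makes cholic acid, whereas the alternative branch begins with the mitochondrial sterol hydroxylase Cyp27a1 and continues with Cyp7b1. Both routes then share the ring enzymes Hsd3b7 and Akr1d1, shorten the side chain in peroxisomes with Amacr and Acox2, and join the product to taurine or glycine through Slc27a5 and Baat. Bile acids returning from the gut restrain the pathway through the nuclear receptor FXR (Nr1h4), its target SHP (Nr0b2) and the fibroblast growth factor receptor Fgfr4.

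Of the 10 enzymes, Cyp7a1 was higher with FSH, Hsd3b7 and Acox2 were lower, and 7 did not pass an adjusted p of 0.05 in limma's test on log2(CPM + 0.5), where CPM is the reads of a gene per 1000000 reads counted on genes. Over all genes tested, 10.6% passed this threshold, 6.19% as higher and 4.41% as lower, and without FSH mouse 1 the number of genes past it fell from 1350 to 803. The median log2 fold change was -0.07 for the enzymes and 0.02 for all genes tested. For 3 of the 10 enzymes the 5 FSH livers did not overlap the 6 saline livers, a pattern seen in 6.67% of all genes tested. Between 10801891 and 19909327 reads per library were counted on genes, and each enzyme had at least 208 reads in every library. The labels do not say that mice of a group came from separate cages or days, so the p-values measure the spread between these livers. FSH mouse 2 stood apart from its group in sex-biased liver genes, named after their values were seen. It had 174 CPM of the transporter gene Slco1a1 (3.88 to 20.9 in the other FSH livers), 122 CPM of Cyp2d9 and 8.19 CPM of Hsd3b5. This liver also had the highest Cyp7a1, Cyp8b1, Cyp7b1, Hsd3b7 and Amacr and the lowest Baat of the FSH group. Without it the log2 fold change was 0.96 for Cyp7a1 (limma adjusted p = 0.0237), -0.69 for Hsd3b7 (limma adjusted p = 0.00052) and -0.71 for Acox2 (limma adjusted p = 0.000146), and the other 7 enzymes again did not pass. In whole liver, fewer cells of a type and less RNA per cell cannot be told apart.

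**Figure D1:**
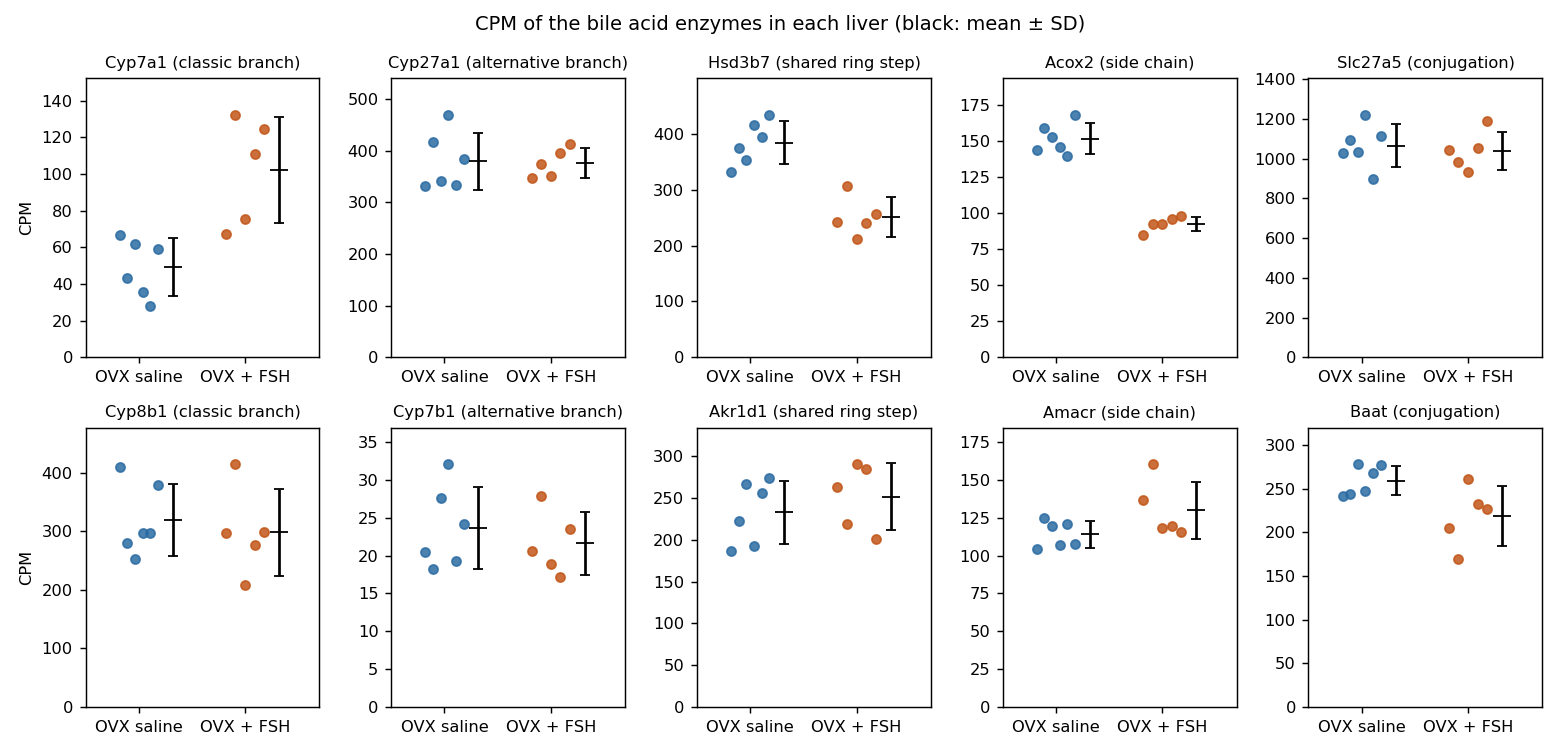
Each panel plots the CPM of 1 enzyme in each liver (y axis, from 0) by group (x axis), with the mean ± SD in black for 6 saline and 5 FSH livers. The groups are apart for Cyp7a1, Hsd3b7 and Acox2, and for Cyp7a1 by less than 1 CPM between the lowest FSH liver (67.5) and the highest saline liver (66.9).

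Cyp7a1 lies on chromosome 4 (GRCm38, 6265612 to 6275633, minus strand). FSH mice 1, 2, 3, 4 and 6 had 67.5, 132, 75.6, 111 and 125 CPM. Saline mice 1 to 6 had 66.9, 43.4, 61.9, 35.8, 28.0 and 59.2 CPM. The FSH mean of 102 ± 29.2 CPM (SD, n = 5) exceeded the saline mean of 49.2 ± 15.7 CPM (SD, n = 6), a 2.08-fold difference. In the fit, log2 change was 1.06 (standard error 0.23, 95% interval 0.57 to 1.56, limma adjusted p = 0.00884). When all 462 divisions of the livers into 5 and 6 were enumerated, the exact permutation test gave a two-sided p = 0.00433. The FSH livers formed a low pair (mice 1 and 3) and a high trio, and the low pair came within reach of the highest saline livers. FSH mouse 1 (67.5 CPM, exact Poisson 95% interval 63.9 to 71.2) and saline mouse 1 (66.9 CPM, 62.4 to 71.7) could not be told apart by their reads, although these intervals cover counting error only. FSH mice 1 and 3 also had the deepest libraries of the study, with 19909327 and 17656759 reads, and whether depth had a part in their lower values was not tested. The spread between livers was far above counting error, since the coefficient of variation was 28.5% with FSH and 31.99% with saline while counting error alone would give 2.58% and 4.25%. An absolute log2 fold change over 1 together with an adjusted p under 0.05 was met by 1.83% of all genes tested and by Cyp7a1, and 6 of 23 other ways of fitting the data put Cyp7a1 at or below that fold, down to 0.90.

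Cyp8b1, the second classic enzyme (chromosome 9, 121914356 to 121916305, minus strand), did not pass the test. Its level in the FSH livers was 296, 414, 208, 276 and 298 CPM. The saline livers had 409, 280.2, 253, 297, 298 and 379 CPM. The highest and the lowest liver were both FSH livers, and the groups overlapped throughout. Means of 299 ± 74.4 CPM (SD, n = 5) and 319 ± 61.0 CPM (SD, n = 6) gave a log2 fold change of -0.11 (95% interval -0.45 to 0.23, limma adjusted p = 0.722).

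The promoter windows below, 250 bases before to 50 bases from the start site, come from a set of RefSeq windows (GRCm38.p6). The set used here held 5 of the 10 enzymes (Cyp8b1, Cyp27a1, Hsd3b7, Akr1d1 and Acox2), which does not mean that RefSeq lacks the others. That of Cyp8b1 is shown because it is the only one of these with the binding-site letters searched for the liver nuclear receptor HNF4A, whose gene is among the regulators measured. Its window is chr9:121916256-121916555 on the minus strand, written 5′ to 3′, and capitals mark the HNF4A letters and the TATA box.
Cyp8b1: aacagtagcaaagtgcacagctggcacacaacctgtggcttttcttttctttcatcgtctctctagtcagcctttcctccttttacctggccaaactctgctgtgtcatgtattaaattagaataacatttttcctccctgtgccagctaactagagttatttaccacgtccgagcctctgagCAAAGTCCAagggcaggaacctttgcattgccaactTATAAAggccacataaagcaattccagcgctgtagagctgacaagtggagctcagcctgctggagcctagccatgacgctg

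The letters searched on both strands were CAAAGTCCA for HNF4A, AGGTCA for a nuclear receptor half-site, CACGTG for an E-box, TTANGTAA for a D-box and TATAAA for a TATA box. They occurred in 0.475%, 16.3%, 7.15%, 2.32% and 13.6% of the 32851 windows of this length. In the Cyp8b1 window CAAAGTCCA lay from -67 to -59 and TATAAA from -31 to -26 relative to the start site. Akr1d1 held AGGTCA 2 times on the minus strand, and the windows of Cyp27a1, Hsd3b7 and Acox2 held none of these letters. A match is a description of the letters in the window, and a window without one says nothing of whether the factor binds.

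The alternative branch showed no change that passed the test. Cyp27a1 (chromosome 1, 74713574 to 74737892, plus strand), which also oxidizes the side chain in the classic route, had 348, 375, 350.5, 397 and 414 CPM in the FSH livers. Saline livers gave 333, 418, 342, 469.8, 334 and 383 CPM. The FSH livers lay inside the range of the saline livers. The log2 fold change of Cyp27a1 was -0.00 (95% interval -0.22 to 0.21, limma adjusted p = 0.988).

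Cyp7b1, the oxysterol hydroxylase of the alternative branch (chromosome 3, 18071950 to 18243338, minus strand), had the fewest reads of the enzymes, 208 to 421 per library. With FSH the livers had 20.6, 27.9, 18.9, 17.2 and 23.5 CPM. With saline they had 20.4, 18.2, 27.5, 32.03, 19.3 and 24.2 CPM. Both groups covered nearly the same range. The fitted log2 fold change of Cyp7b1 was -0.12 (95% interval -0.45 to 0.22, limma adjusted p = 0.701). The small nuclear RNA gene Gm23686 lies over Cyp7b1 on the same strand and had 0 reads in every library.

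Set against each other within a liver, the first enzyme of the classic branch stood higher relative to the alternative branch with FSH. The Cyp7a1 to Cyp7b1 ratio of CPM was 3.28, 4.75, 4.01, 6.46 and 5.31 in the FSH livers. In the saline livers this ratio was 3.28, 2.39, 2.25, 1.12, 1.45 and 2.45. The means were 4.76 ± 1.22 (SD, n = 5) and 2.16 ± 0.77 (SD, n = 6), and mouse 1 of each group was tied to 3 digits. Mean Cyp7a1 to Cyp8b1 ratios were 0.346 ± 0.0765 with FSH and 0.156 ± 0.0511 with saline, and Cyp7a1 to Cyp27a1 ratios were 0.269 ± 0.0647 and 0.133 ± 0.0527, with overlap between groups in both. By contrast, the ratio of the other classic enzyme to Cyp7b1 was 13.8 ± 1.97 with FSH and 14.2 ± 4.22 with saline. Cyp27a1 to Cyp7b1 was 17.9 ± 3.48 and 16.6 ± 3.56. Ratios were described without a test, and those with Cyp7a1 share its values.

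**Figure D2:**
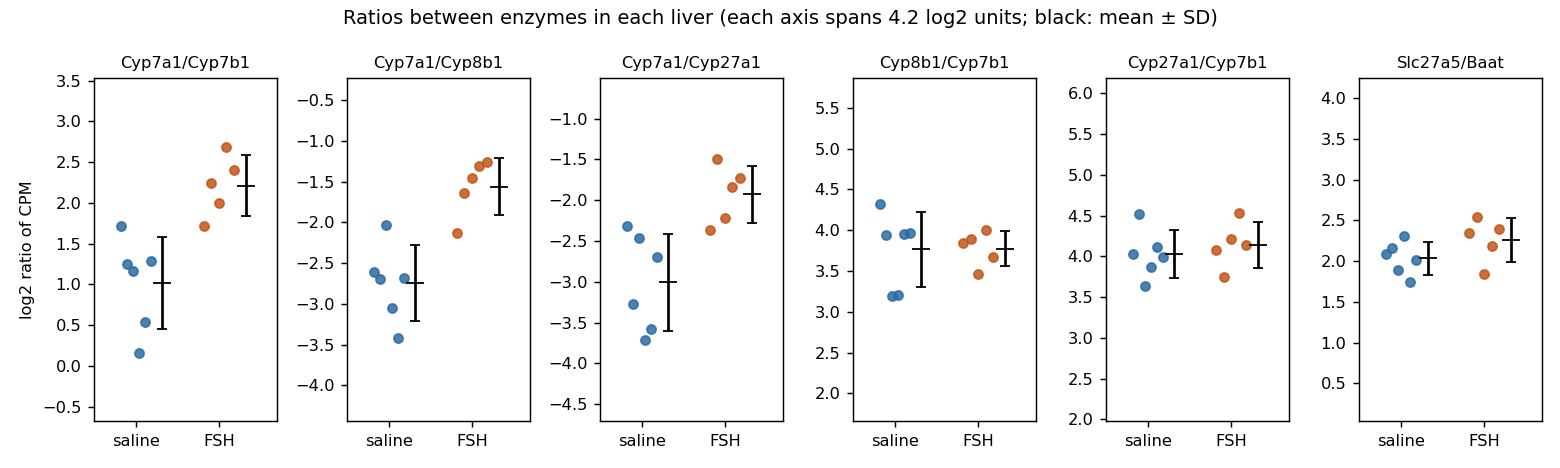
Log2 ratios of CPM between enzymes (y axis, each spanning 4.2 log2 units) in each saline and FSH liver (x axis), with mean ± SD in black. The 3 ratios with Cyp7a1 are higher with FSH by 1.08 to 1.19 log2 units on average, while Cyp8b1/Cyp7b1 and Cyp27a1/Cyp7b1 differ by 0.01 and 0.12.

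Downstream of the branches, the shared ring enzyme Hsd3b7 (chromosome 7, 127800604 to 127803802, plus strand), which oxidizes the ring hydroxyl group of the sterol intermediates, was lower in every FSH liver. Hsd3b7 in the FSH livers was at 242, 307, 212, 240.1 and 256 CPM. In the saline livers it was at 331, 375, 354, 417, 395 and 435 CPM. No FSH liver reached the lowest saline liver, and the closest was FSH mouse 2. Means of 251 ± 35.1 CPM (SD, n = 5) and 384 ± 38.7 CPM (SD, n = 6) put the FSH group 34.6% lower. The log2 fold change was -0.62 (standard error 0.10, 95% interval -0.83 to -0.40, limma adjusted p = 0.0015), and the exact permutation test gave a two-sided p = 0.00216, the smallest that 5 livers against 6 allow. The annotation places a longer gene model, Gm49388, over Hsd3b7 on the same strand and 9430064I24Rik on the other strand. How reads were assigned where models overlap is not given in the sources used here, so the Hsd3b7 value could hold reads of either.

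Akr1d1, the reductase that follows it (chromosome 6, 37530173 to 37568815, plus strand), did not pass the test. Levels with FSH were 263, 218, 290.3, 285 and 202 CPM. Levels with saline were 187, 222, 267, 193, 256 and 274 CPM. The groups overlapped over most of their range, and the log2 fold change of Akr1d1 was 0.11 (95% interval -0.16 to 0.39, limma adjusted p = 0.645). The pseudogene Gm7463 lies over Akr1d1 on the same strand.

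In the side chain pair, Acox2 (chromosome 14, 8225511 to 8259353, minus strand), the peroxisomal oxidase that begins side-chain shortening, had the smallest adjusted p of the 10 enzymes. Acox2 in the FSH livers was at 85.1, 92.1, 92.1, 95.7 and 97.7 CPM. The 6 saline livers held 144, 159, 153, 146, 139.8 and 168 CPM. Both groups were tight, with coefficients of variation of 5.20% and 7.01%, and far apart. Means of 92.6 ± 4.82 CPM (SD, n = 5) and 152 ± 10.6 CPM (SD, n = 6) put the FSH group 38.9% lower. The fitted log2 fold change was -0.71 (standard error 0.07, 95% interval -0.87 to -0.55, limma adjusted p = 3.93e-05), and the exact permutation test gave a two-sided p = 0.00216.

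Amacr (chromosome 15, 10981756 to 10996626, plus strand), the racemase that prepares the side chain for Acox2, had a log2 fold change of 0.18 (95% interval -0.02 to 0.39, limma adjusted p = 0.258). Its FSH livers had 137, 160.1, 118, 119.7 and 115 CPM. Its saline livers had 104, 125, 119, 107, 121 and 108 CPM. FSH mice 1 and 2 were above every saline liver, and the other 3 were within the saline range. Without FSH mouse 2 the log2 value of Amacr was 0.10 (limma adjusted p = 0.514).

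The RefSeq windows of the enzymes that were lower are printed because the pair moved in the same direction. That of Hsd3b7 is chr7:127800359-127800658 on the plus strand and that of Acox2, taken at the upstream one of its listed starts, is chr14:8258970-8259269 on the minus strand. Neither has capitals, since none of the letters searched occurred in them.
Hsd3b7: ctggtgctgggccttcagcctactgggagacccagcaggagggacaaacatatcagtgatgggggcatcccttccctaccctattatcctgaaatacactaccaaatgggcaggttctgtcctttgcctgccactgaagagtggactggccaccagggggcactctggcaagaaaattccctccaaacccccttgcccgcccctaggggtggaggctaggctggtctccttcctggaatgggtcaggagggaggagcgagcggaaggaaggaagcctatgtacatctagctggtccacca
Acox2: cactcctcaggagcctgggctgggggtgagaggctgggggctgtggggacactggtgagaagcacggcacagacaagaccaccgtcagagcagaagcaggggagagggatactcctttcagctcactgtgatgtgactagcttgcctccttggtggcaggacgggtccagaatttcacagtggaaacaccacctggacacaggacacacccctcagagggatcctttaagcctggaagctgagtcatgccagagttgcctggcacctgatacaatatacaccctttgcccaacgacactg

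The conjugating enzymes did not pass the test. Slc27a5, the ligase that activates bile acids with coenzyme A (chromosome 7, 12988346 to 12998192, minus strand), had 1044, 986, 933, 1052 and 1190.4 CPM in the FSH livers. Among saline livers it had 1030.4, 1095, 1033, 1222, 896 and 1115 CPM. All FSH livers fell within the saline range, and the log2 fold change of Slc27a5 was -0.03 (95% interval -0.23 to 0.17, limma adjusted p = 0.882).

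Baat, which transfers the activated bile acid to taurine or glycine (chromosome 4, 49489422 to 49506557, minus strand), also did not pass. Baat in the FSH livers was at 206, 169, 261, 232 and 227 CPM. Its saline counterparts were at 242, 244, 278, 247, 268 and 277 CPM. Apart from FSH mouse 3, every FSH liver was below the lowest saline liver. The log2 fold change of Baat was -0.26 (95% interval -0.47 to -0.04, limma adjusted p = 0.126), and the exact permutation test of this single gene gave a two-sided p = 0.0238 before any adjustment. Without FSH mouse 2 the log2 value of Baat was -0.17 (limma adjusted p = 0.272).

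**Figure D3:**
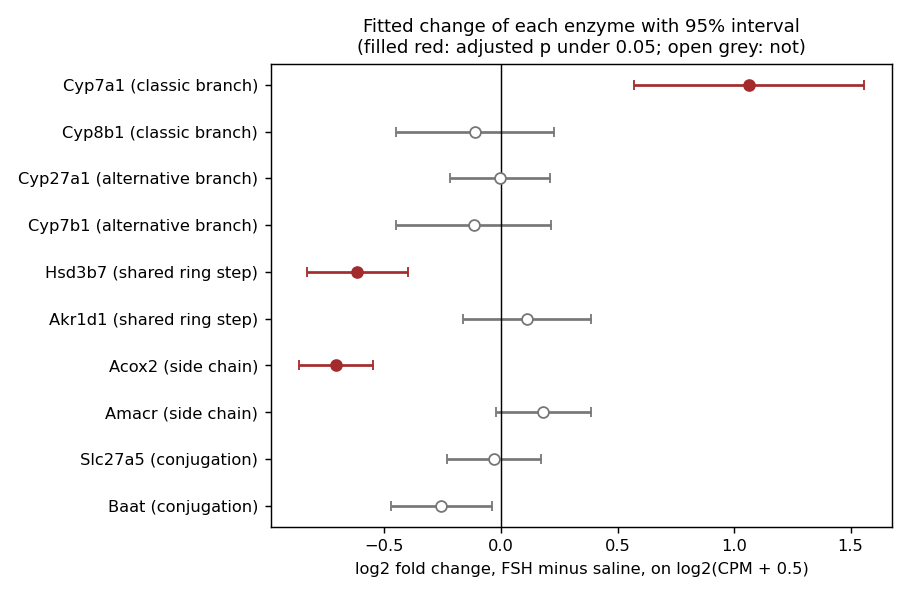
Fitted log2 fold change of each enzyme, FSH minus saline on log2(CPM + 0.5) (x axis), with its 95% interval, the enzymes ordered by step (y axis). Filled red points passed an adjusted p of 0.05 (Cyp7a1 at 1.06, Hsd3b7 at -0.62, Acox2 at -0.71) and open grey points did not.

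Scaled to the length of the exons, levels could be compared between genes. In saline livers the mean level was 437 CPM per kb for Slc27a5, 175 for Cyp27a1, 164 for Cyp8b1, 139 for Hsd3b7, 134 for Baat, 80.6 for Akr1d1, 43.7 for Amacr, 40.9 for Acox2, 11.8 for Cyp7a1 and 10.9 for Cyp7b1. The rate-limiting enzyme of the classic branch was thus among the least abundant transcripts of the pathway in this group. Neighbours in that order overlapped in their ranges except Slc27a5 and Cyp27a1, Baat and Akr1d1, Akr1d1 and Amacr, and Acox2 and Cyp7a1. In FSH livers the same scale gave 24.5 CPM per kb for Cyp7a1, 24.995 for Acox2 and 9.97 for Cyp7b1. Cyp7a1 thereby overlapped Acox2 in FSH livers and lay above Cyp7b1 in 5 of 5 of them, whereas in saline livers it was above Cyp7b1 in 4 of 6. Hsd3b7 (90.8 CPM per kb) stood below Baat (113) with FSH, in reverse of the saline order, although their ranges overlapped in both groups.

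**Figure D4:**
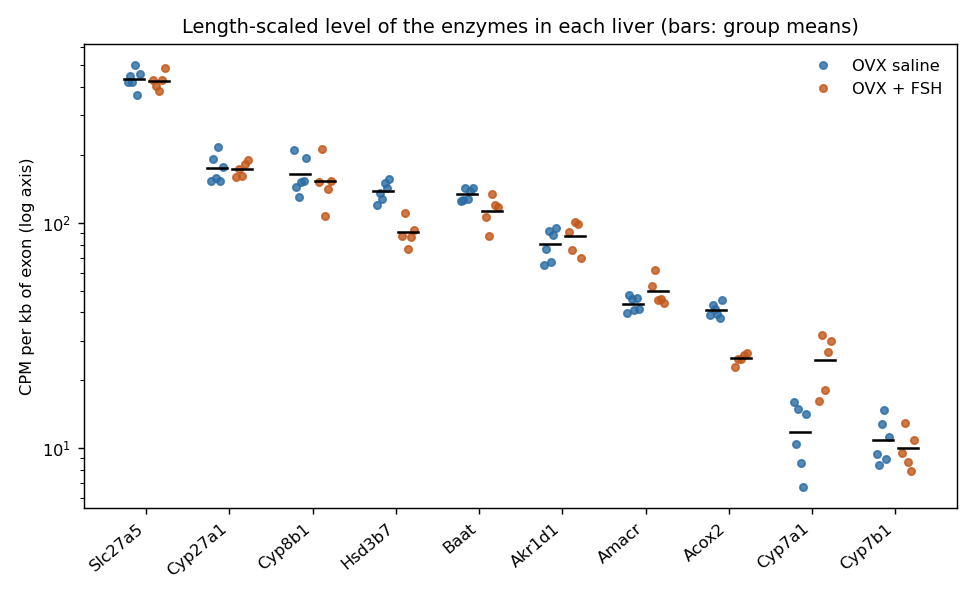
CPM per kb of exon (y axis, log scale) of each enzyme in each liver, ordered by the saline mean (x axis), with bars at group means. Levels span from about 10.9 (Cyp7b1) to 437 CPM per kb (Slc27a5) in saline livers, and Cyp7a1 moves from 11.8 to 24.5.

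By the mean absolute difference over all 11 livers in log2(CPM + 0.5), each gene taken relative to its saline mean, the profiles nearest to Cyp7a1 among 11818 named genes were Dsg1c (0.314), Rnf145 (0.321) and Brca1 (0.322). Nearest to Hsd3b7 were Slc16a9 (0.0935), Cgn (0.0963) and Spg20 (0.0983). Acox2 was nearest to Stra6l (0.0580), Sumo3 (0.0631) and Pid1 (0.0693). These distances are between whole profiles, the group difference included, and are a description. The genes nearest to Cyp7a1 were farther from it than those nearest to Hsd3b7 or Acox2.

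Genes that supply the enzymes with electrons and sterol were counted by list, beside 6.19% of all genes tested that were higher and 4.41% that were lower. Of 5 electron donors for the cytochrome P450 enzymes, 4 rose and 0 fell, and the list median was 0.47 on the log2 scale. Fdx1, the ferredoxin that feeds mitochondrial Cyp27a1, averaged 144 ± 14.9 CPM in FSH livers (SD, n = 5) against 105 ± 14.5 CPM in saline livers (SD, n = 6, limma adjusted p = 0.0112). Cyb5r3, the cytochrome b5 reductase, had 935 ± 121 and 556 ± 61.6 CPM without overlap (limma adjusted p = 0.000463). The calls of Por, the reductase that serves Cyp7a1, Cyp8b1 and Cyp7b1 (643 ± 116 against 399 ± 155 CPM, limma adjusted p = 0.0457), and of the ferredoxin reductase Fdxr (23.4 ± 1.97 against 17.8 ± 2.64 CPM, limma adjusted p = 0.033) were lost in 16 and 13 of 23 alternative fits. Of 6 sterol delivery genes, 4 rose and 0 fell, and the list median was 0.34 on the log2 scale. Stard4, a cytosolic cholesterol carrier, rose by 0.87 on the log2 scale (limma adjusted p = 0.0165). The calls of Stard5, Npc2 and Star were lost in 17, 14 and 10 alternative fits, and Star had 4 to 18 reads per library.

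The other listed genes of synthesis (enzymes, a transporter and a carrier) and the genes of taurine supply are read against the same 6.19% higher and 4.41% lower of all genes tested. Of 10 such synthesis genes, 9 passed the filter, 1 rose, 1 fell and 7 did not pass the test, and the list median was -0.04 on the log2 scale. Abcd3, a peroxisomal membrane transporter for the bile acid intermediates, averaged 801 ± 251 CPM in FSH livers (SD, n = 5) against 479 ± 67.0 CPM in saline livers (SD, n = 6, limma adjusted p = 0.0148). Cyp46a1, a cholesterol hydroxylase known best from neurons, was low at 3.35 ± 0.61 and 5.14 ± 0.73 CPM (limma adjusted p = 0.0167, and 0.0505 without FSH mouse 3). Among 5 genes of taurine supply, 0 rose and 1 fell. Cdo1, the cysteine dioxygenase that starts taurine synthesis, averaged 1281 ± 198 CPM in FSH livers (SD, n = 5) against 2193 ± 192 CPM in saline livers (SD, n = 6), without overlap (limma adjusted p = 0.000478). Csad, which follows it, differed by -0.53 on the log2 scale (adjusted p = 0.221 by limma).

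The same shares of all genes apply to regulators and transporters. Of 14 regulators, 0 rose and 3 fell, and the list median was -0.13 on the log2 scale. Nr0b2, which encodes the repressor SHP, had 54.5, 33.0, 35.2, 41.8 and 24.9 CPM in the FSH livers. Corresponding saline values were 135, 99.6, 109, 160.3, 76.0 and 34.5 CPM. Saline mouse 6 was inside the FSH range and the other saline livers were above it, and the fitted log2 difference was -1.32 (SE 0.31, adjusted p = 0.0142 by limma). Hnf4a (355 ± 52.3 against 486 ± 85.6 CPM, limma adjusted p = 0.0369) and Fgfr4 (30.8 ± 5.37 against 43.2 ± 6.11 CPM, limma adjusted p = 0.0193) lost their calls in 9 and 2 alternative fits, those of Fgfr4 being without FSH mouse 1 (limma adjusted p = 0.0633) and without FSH mouse 3 (limma adjusted p = 0.0526). Nr1h4, which encodes FXR, differed by 0.16 on the log2 scale (adjusted p = 0.285 by limma). Transport genes included 13 of 14 that passed the filter, of which 4 rose and 0 fell, and the list median was 0.16 on the log2 scale. The sterol exporters Abcg5 (115 ± 25.7 against 66.1 ± 4.22 CPM, limma adjusted p = 0.00155) and Abcg8 (122 ± 32.6 against 66.6 ± 11.5 CPM, limma adjusted p = 0.00559) rose without overlap, while the bile salt pump Abcb11 differed by -0.35 on the log2 scale (adjusted p = 0.084 by limma). Slc51b, a subunit of the basolateral bile acid exporter, rose from 0.81 ± 0.19 to 2.54 ± 1.08 CPM (limma adjusted p = 0.00534) while its partner Slc51a had at most 3 reads in every library, and the call of the uptake carrier Slc10a1 (limma adjusted p = 0.039) was lost in 12 alternative fits.

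**Figure D5:**
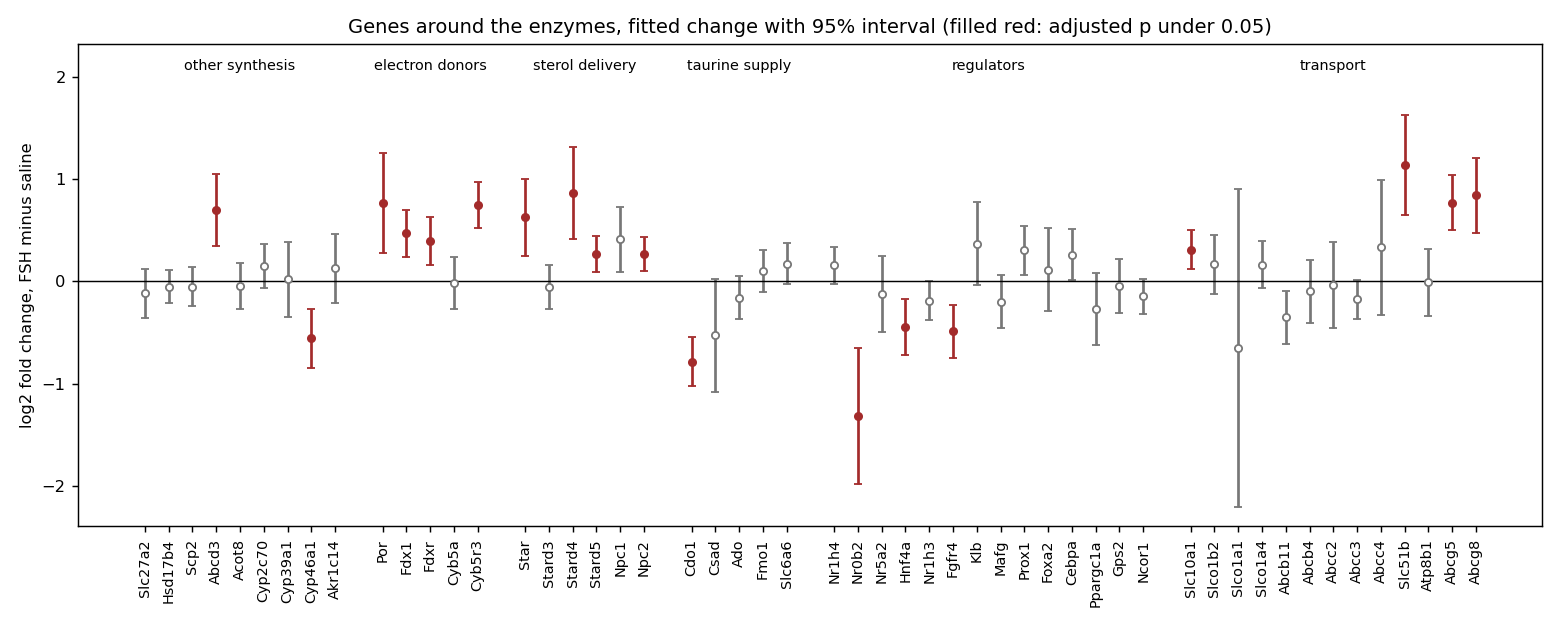
Log2 fold change, FSH minus saline on log2(CPM + 0.5), with 95% intervals (y axis) for genes around the enzymes, grouped by role (x axis). Filled red points passed an adjusted p of 0.05, with 4 higher among 5 electron donors, 4 higher among 13 transport genes and 3 lower among 14 regulators.

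Clock genes moved with the groups as well. Of 18 listed, 6 rose and 6 fell, where 6.19% and 4.41% of all genes tested did, and for 11 the groups did not overlap, as for 6.67% of all genes tested. The call of Rora, 1 of the 6 that fell, was lost in 13 of 23 alternative fits (limma adjusted p = 0.0462 as reported). Also lower with FSH were Npas2 (0.02 ± 0.04 against 5.91 ± 1.00 CPM, limma adjusted p = 2.95e-09), Arntl (3.33 ± 1.31 against 18.1 ± 3.43 CPM, limma adjusted p = 1.14e-05), Clock, Cry1 and Nfil3. Higher with FSH were Per2, Per3 (29.7 ± 9.27 against 4.32 ± 1.00 CPM, limma adjusted p = 6.91e-06), Nr1d1, Nr1d2, Tef and Dbp. Dbp, a clock output factor, averaged 83.0 ± 34.8 CPM in FSH livers (SD, n = 5) against 4.30 ± 0.66 CPM in saline livers (SD, n = 6; limma adjusted p = 1.15e-07). Its antagonist Nfil3 fell from 68.8 ± 11.6 to 21.8 ± 7.497 CPM (limma adjusted p = 4.68e-05). The hour of tissue collection is not given in the sources used here, and the part of the clock difference in the values of Cyp7a1, Hsd3b7 and Acox2 was not tested.

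Cell type markers were checked as well, where 10.6% of all genes tested passed. None of 8 hepatocyte markers passed the test, and their summed level was 98678 to 117056 CPM in FSH livers and 92399 to 119559 CPM in saline livers. Alb made up most of that sum, at 74515 ± 9184 CPM with FSH (SD, n = 5) and 72375 ± 10609 CPM with saline (SD, n = 6). Kupffer cell markers had 0 of 7 called, with 7 of 7 fitted values below 0, as for 46.0% of all genes tested, and sums of 108 to 298 CPM with FSH and 177 to 351 CPM with saline. Stellate markers had 0 of 7 called, also with 7 of 7 fitted values below 0 (211 to 310.02 against 245 to 349.6 CPM), endothelial markers 1 of 7, Lyve1, which fell (158 to 236 against 184 to 222 CPM), and cholangiocyte markers 1 of 5 tested, Krt7, which rose (48.2 to 69.8 against 38.3 to 55.7 CPM). Of 8 pancreatic acinar markers 6 had at most 3 reads in every library, and of 6 adipocyte markers 4 did, with Fabp4, the 1 tested, lower. Erythroid markers had 0 of 5 tested genes called. The part of these cells in the enzyme values was not tested.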

How the data were processed

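Liver RNA from 5 FSH-treated and 6 saline-treated OVX mice was sequenced as 100 bp pairs from NEBNext Ultra libraries. The authors deposited CPM values per Ensembl gene, with each library summing to 1000000 and no scaling between libraries. The submitters' processing notes name FastQC 0.11.2, Trim Galore 0.3.3, cutadapt, STAR, RSEM and the build mm10, while the annotation, the counting mode and the use of strand are not given in the sources used here. Overlapping genes and paralogs could therefore share reads.

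All values (100%) were whole multiples of 1 read within 0.05 reads, which gave back the reads behind each value and totals of 10801891 to 19909327. No pair of libraries within a group agreed within sampling noise (lowest mean chi-square per gene 12.4, for FSH mice 3 and 4). Symbols and positions were taken from GENCODE M21 (GRCm38), which named 35555 of 36788 identifiers. Genes averaging 0.5 CPM or more entered limma 3.58.1 (R 4.3.3) as log2(CPM + 0.5) (eBayes with trend, Benjamini-Hochberg over 12733 genes), so fold changes of low genes are understated. Single enzymes were also tested by exact permutation over all 462 splits. Poisson intervals were computed with scipy 1.17.1. Levels between genes are CPM per kb of the union of exons. The fits were tested on simulated data with larger fold changes than those of the enzymes and a common dispersion for all genes. That check does not cover changes of the size of the enzymes. Alternatives were other pseudocounts and filters, TMM and median-of-ratios scaling, array weights, no trend, leave-one-out fits, a replicate block, and voom, edgeR 4.0.16 and DESeq2 1.42.0 on the recovered reads.

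The enzymes and all lists were chosen with earlier results of these data known. Named genes are the 10 enzymes, list members past an adjusted p of 0.05, or failing that as many as 3 by smallest p, and the 3 profiles nearest to each enzyme that passed. Csad, Nr1h4, Abcb11 and Slc51a were named for their roles after their values were seen. Slco1a1, Cyp2d9, Hsd3b5, Cyp2u1, Serpina12, Cyp2b13 and Cyp3a41b were named for extreme values in single livers, and Alb for its share of the hepatocyte sum. Lists covered other synthesis enzymes, electron donors, sterol delivery, taurine supply, regulators, transport, the clock, sex-biased genes, zonation and cell types.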

Additional observations from a re-analysis of the deposited data

Results flagged for a closer look

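Among 126 groups of values from 63 genes (the enzymes, the named genes around them, the clock and the sex-biased genes), 14 extreme values lay far from the others of their group, where chance gives about 1 in 20. FSH mouse 6 had 445.2 CPM of Hnf4a, with the nearest FSH liver at 347 CPM. The same mouse had 40.1 CPM of Fgfr4, with the nearest FSH liver at 29.7 CPM. FSH mouse 1 had 0.1005 CPM of the clock gene Npas2, below the limit of 3 reads, while the other FSH livers were listed at 0. Any read in a single liver would be flagged in this way, and saline livers had 5.91 ± 1.00 CPM of Npas2. FSH mouse 2 was the highest FSH liver for the male-biased genes Slco1a1 (174 CPM, nearest 20.9), Cyp2d9 (122 CPM, nearest 36.6), Mup20 (244 CPM, nearest 128), Hsd3b5 (8.19 CPM, nearest 0.75) and Cyp2u1 (2.51 CPM, nearest 1.31). FSH mouse 1 was the highest for Cyp2a4 (2355 CPM, nearest 1214) and Serpina12 (35.6 CPM, nearest 12.2), and FSH mouse 3 the lowest for Selenbp2 (8.67 CPM, nearest 17.4). Among saline livers, mouse 4 was the highest for Hsd3b5 (1.60 CPM, nearest 0.56), and mouse 5 was the lowest for Cyp2b13 (243 CPM, nearest 343) and the highest for Cyp3a41b (75.4 CPM, nearest 26.9). None of the 10 bile acid enzymes had such a liver in either group.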

How the results depend on the processing

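Cyp7a1 (log2 fold change 0.90 to 1.20, adjusted p 8.78e-05 to 0.0314), Hsd3b7 (-0.69 to -0.56, highest adjusted p 0.00637) and Acox2 (-0.74 to -0.68, highest adjusted p 0.000541) passed limma's or the count tests' threshold in 23 of 23 alternatives, and the other 7 enzymes in none. The number of genes past the threshold was 1350 in the reported fit, 803 to 1659 when 1 library was left out (803 without FSH mouse 1) and 1013 to 1892 otherwise. With 1 library left out, values that had not passed changed sign for Cyp27a1 (-0.040 to 0.060), Cyp8b1 (-0.24 to 0.011) and Slc27a5 (lowest -0.081, highest 0.0097). Array weights gave 0.00047 for Cyp27a1. These had no call to lose. Deviations of same-numbered mice from their group means correlated at 0.065, 0.36, 0.019, 0.14 and -0.066, and only pair 2 correlated best with its own number. These correlations cannot tell whether same-numbered mice shared a cage or day. With the replicate number as a block, 1210 genes passed and the enzymes kept their calls. Genes around the enzymes that lay near the threshold lost calls as stated beside them, and the clock gene Rora did in 13 alternatives. Without FSH mouse 1 the limma adjusted p was 0.0948 for Fdxr, 0.1001 for Hnf4a, 0.130 for Npc2 and 0.117 for Slc10a1. Without FSH mouse 2 it was 0.0929 for Por, and without FSH mouse 4 it was 0.134 for Stard5, 0.0813 for Star and 0.121 for Rora. Depth limits low genes such as Star and Slc51b more than the enzymes.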

Other observations

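Genes known to differ between the sexes in liver were counted beside the 6.19% of all genes tested that were higher with FSH and the 4.41% that were lower. Of 14 female-biased genes, 11 did not pass the test, 0 fell and 3 rose, namely Acot3 (233 ± 26.4 against 73.8 ± 17.2 CPM), Cux2 (19.97 ± 4.09 against 5.10 ± 2.28 CPM) and Cyp2a4 (1340.1 ± 577 against 639 ± 83.4 CPM). Of 9 tested male-biased genes, 1 rose and 3 fell. FSH mouse 2 stood apart in several of them, and without it, an alternative chosen after seeing the data, 1 rose and 4 fell of 8 tested, Slco1a1 being the further one, while 3 female-biased genes rose and 0 fell. Nudt7, a peroxisomal hydrolase, rose from 90.4 ± 16.6 to 239 ± 66.1 CPM, while Elovl3, Selenbp2 and Mup20 fell (limma adjusted p = 0.0165, 0.00697 and 0.0135).

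Among 8 periportal genes 2 rose and 2 fell, where 10.6% of all genes tested passed. Ass1 and Gls2, which handle urea and glutamine, rose by 0.59 and 0.74 on the log2 scale, while Cyp2f2 and Cdh1 had log2 fold changes of -0.94 and -1.05. Of 8 pericentral genes, 1 rose (Lect2, 0.40 on the log2 scale) and 0 fell, a share near that of all genes.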
